A study of Mus musculus with 42 samples.

Results

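Rsph9, Rnf152, Chad, Pitpnc1, Tmem100, Colca2, Scara3, Asb4, Kansl1l and Bex4 are 10 less studied genes, of 22180 with a probe set of their own, that were high in the brightest Lgr5 reporter cells of the mouse pylorus, the outlet region of the stomach. They were chosen by their measured values, because each was higher in pyloric Lgr5Hi cells of the Lgr5-EGFP-IRES-CreERT2 line than in the other sorted populations of that line. Levels within that line are therefore given as a description with no test, and the differences tested are those between groups of the other mice. Each gene is represented by its probe set with the highest mean, and its values are deposited log2 intensities, in which a difference of 1 is a doubling of signal.

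The series holds 42 Affymetrix arrays in 15 groups of gastrointestinal epithelium from untreated, healthy adult mice, at least 7 to 8 weeks old and of either sex. The Lgr5-EGFP-IRES-CreERT2 line (here IRES) and the Lgr5-EGFP-DTR line (here DTR) both carry green fluorescent protein at the Lgr5 locus, the first with an inducible Cre recombinase and the second with the diphtheria toxin receptor, and neither was induced or given toxin. IRES pylorus gave 4 arrays of bright (Lgr5Hi) and 4 of dim (Lgr5Lo) cells and 2 of whole tissue; IRES small intestine gave 2 Lgr5Hi, 2 Lgr5Lo, 2 crypt arrays and 1 whole array; IRES colon gave 3 Lgr5Hi, 3 Lgr5Lo and 2 whole arrays. DTR pylorus gave 3 arrays each of Lgr5Hi, Lgr5Lo and reporter-negative (Lgr5Neg) cells, and wild-type (WT) pylorus gave 4 arrays each of cells stained (Aqp5Pos) or unstained (Aqp5Neg) by an antibody to the water channel Aqp5. A field of the labels names the IRES line for the DTR arrays, and their titles were followed. How many animals went into an array is not given in the sources used here, so the p-values measure the spread between arrays that the labels call biological replicates. In sorted bulk samples, fewer cells of a type and less RNA per cell cannot be told apart.

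Pyloric glands are renewed from their base, where cells carry the Wnt target Lgr5, a receptor for R-spondins, and mucous cells with Muc6 lie close by. Green fluorescence in both reporter lines is made from the Lgr5 locus, and the gates were set by its brightness. Brightness is a protein signal and need not rank single cells by transcription of Lgr5. The 10 genes do not form one pathway: Chad encodes a matrix protein, Tmem100 and Scara3 membrane proteins, Rnf152 and Asb4 parts of ubiquitin ligases, Pitpnc1 a lipid carrier, Colca2 and Kansl1l nuclear cofactors, Rsph9 a part of motile cilia and Bex4 a small protein of an X-linked family.

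The 250 bases before the annotated start are shown for Chad, Asb4 and Kansl1l. In these promoters a searched TATAAA or TTTGCAT motif lay within 100 bases of the start. Sequences are from RefSeq, build GRCm38.p6, written 5′ to 3′ on the gene's strand. Capitals mark TATAAA in Chad and TTTGCAT in Asb4 and Kansl1l. TTTGCAT is all but the first letter of ATTTGCAT, the octamer bound by POU class 2 factors, and the shorter string was searched.
Chad, chr11:94564797-94565046, plus strand: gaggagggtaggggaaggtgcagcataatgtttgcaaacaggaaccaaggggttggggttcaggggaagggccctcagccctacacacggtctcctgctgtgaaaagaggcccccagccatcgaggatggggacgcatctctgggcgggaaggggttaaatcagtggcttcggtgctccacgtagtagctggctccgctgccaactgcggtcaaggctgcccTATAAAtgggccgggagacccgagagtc
Asb4, chr6:5383136-5383385, plus strand: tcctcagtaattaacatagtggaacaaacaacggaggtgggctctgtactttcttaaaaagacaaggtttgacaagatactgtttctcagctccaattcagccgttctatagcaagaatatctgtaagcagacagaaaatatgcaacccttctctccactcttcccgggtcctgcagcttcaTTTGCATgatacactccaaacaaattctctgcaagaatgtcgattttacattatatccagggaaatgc
Kansl1l, chr1:66817596-66817845, minus strand: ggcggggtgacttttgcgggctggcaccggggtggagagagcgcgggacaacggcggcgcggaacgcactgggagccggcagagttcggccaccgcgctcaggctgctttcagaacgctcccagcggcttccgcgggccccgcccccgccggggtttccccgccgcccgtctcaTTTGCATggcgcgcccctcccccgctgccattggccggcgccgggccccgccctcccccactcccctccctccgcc
The TATAAA of Chad began 28 bases before the start, the TTTGCAT of Asb4 68 bases and that of Kansl1l 76 bases before it. RefSeq promoters were matched for 8 of the 10 genes, which gave 10 windows of the 250 bases before a start, and motifs were read on both strands. TATAAA occurred in 2 of these 10 windows and in 12.37% of all 32851, and TTTGCAT in 2 of 10 and in 4.12% of all. Neither CTTTGAT nor CTTTGAA, motifs of the Wnt effectors TCF and LEF that share their first 6 letters, occurred in the 10 windows, and 7.48% of all windows held at least 1 of them. GATAAG occurred in 2 of 10 and in 6.55% of all. These are matches of letters and not measured binding sites.

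The arrays had similar medians, between 3.82 and 4.25, and the correlation between 2 arrays ran from 0.81 to 0.99. The sort markers followed the gates. In DTR pylorus Lgr5 was 4.13 ± 0.19 (SE) higher in Lgr5Hi than in Lgr5Neg cells (limma adjusted p = 7.99e-08). In WT pylorus Aqp5 was 1.63 ± 0.21 higher in Aqp5Pos than in Aqp5Neg cells (limma adjusted p = 0.00245). Each marker also moved in the other sort. Lgr5 averaged 8.38 in WT Aqp5Pos and 6.42 in Aqp5Neg cells, and Aqp5 averaged 10.44 in DTR Lgr5Hi and 7.70 in Lgr5Neg cells. The whole colon array numbered 1 carried surface pit cell genes of the stomach (list mean 11.44, against 4.24 on the other whole colon array), and values of both are given where the colon is described. The whole small intestine array had more Lgr5 (7.10) than both crypt arrays (4.81 and 5.04).

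All 10 genes were higher in DTR Lgr5Hi than in DTR Lgr5Neg cells by 1.74 to 3.48 on the log2 scale. The rule that chose them used values of the IRES line. The choice was made with earlier results of these data known, so the DTR arrays are not an untouched set. Chad, a matrix protein, showed the largest difference and Kansl1l, a relative of a chromatin scaffold, the smallest. Each of the 10 was called (limma, adjusted p under 0.05), where 8.84% of all genes were called higher. Every Lgr5Hi array lay above every Lgr5Neg array for all 10, as for 16.2% of all genes. The median difference was 2.23 over the 10 genes and 0.02 over all genes. By size of difference the 10 ranked between place 7 (Chad) and place 146 (Kansl1l) of 22180.

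Dim cells lay between bright and negative cells. Between DTR Lgr5Hi and Lgr5Lo cells 7 of the 10 were called higher (2.02% of all genes) and 7 had no overlap between arrays (10.9% of all genes), with a median difference of 1.11. Between Lgr5Lo and Lgr5Neg cells 8 were called higher (1.57% of all genes) and 9 had no overlap (11.7% of all genes), with a median difference of 1.20. The dim cells had reached between 48.5% (Asb4) and 72.8% (Scara3) of the log2 difference between negative and bright cells. Lgr5 stood at 48.2% and Aqp5 at 66.5% by the same measure. These 3 comparisons share arrays and are not independent of each other. In 1 fit over all 42 arrays, 1 of the 10 was called between bright and dim cells (Rsph9) and 2 between dim and negative cells (Rsph9 and Chad). The spread of that fit also holds the IRES arrays that chose the genes and the whole colon array with stomach genes.

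In WT mice, sorted by an antibody with no reporter, 3 of the 10 were called higher in Aqp5Pos than in Aqp5Neg cells, Chad, Tmem100 and Kansl1l (0.546% of all genes were called higher). Rsph9, Chad, Tmem100, Scara3 and Kansl1l had no overlap between the 4 arrays of each group, 5 of 10 genes against 5.84% of all genes. The median difference over the 10 genes was 0.90, and over all genes 0.06. The differences of the other 7 genes ran from 0.38 (Pitpnc1) to 1.31 (Rnf152), all towards Aqp5Pos. The count of 3 fell to 1 without Aqp5Neg array 1, 3 or 4.

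**Figure D1:**
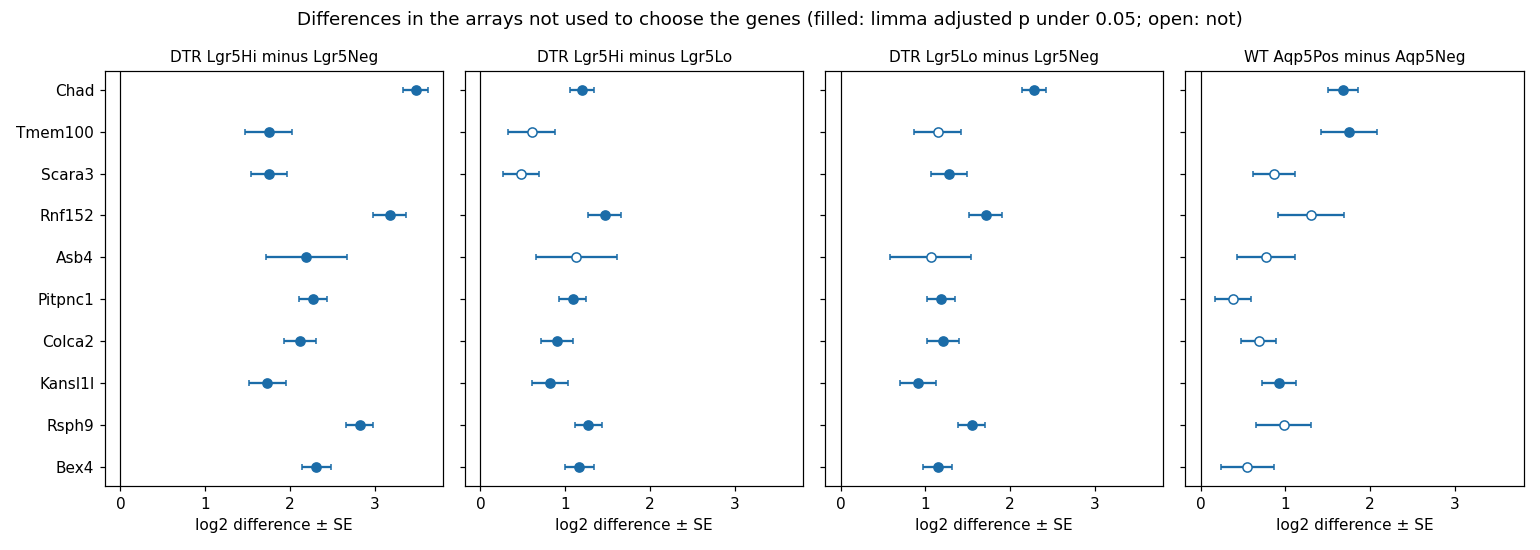
Log2 difference ± SE of each gene in the 3 DTR comparisons (3 arrays a group) and in the WT comparison (4 arrays a group), from limma. Filled points passed an adjusted p of 0.05: 10 genes for Lgr5Hi minus Lgr5Neg, 7 for Lgr5Hi minus Lgr5Lo, 8 for Lgr5Lo minus Lgr5Neg and 3 for Aqp5Pos minus Aqp5Neg.

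Marker genes of several cell types moved with the same gates. Of 7 measured markers of gland mucous cells, Aqp5 among them, 6 were higher in DTR Lgr5Hi than in Lgr5Neg cells (median 2.42). In WT 6 were higher in Aqp5Pos than in Aqp5Neg cells (median 1.22), counting Aqp5, on which those cells were sorted. The mean level of these markers ran from 10.65 to 10.77 on the DTR Lgr5Hi arrays and from 8.39 to 8.74 on the Lgr5Neg arrays. Whether they were carried by the Lgr5 cells themselves or by other mucous cells was not tested. Of 7 genes listed as pit cell markers, 6 were lower in DTR Lgr5Hi cells and 1, Gkn3, was higher (median -3.66). In WT Aqp5Pos cells 5 were lower (median -1.19). Of all genes 9.48% and 2.25% were called lower in the respective comparisons. Gkn3 averaged 13.11 in DTR Lgr5Hi and 12.07 in Lgr5Neg cells, and 12.51 in WT Aqp5Pos and 11.88 in Aqp5Neg cells. Its means thus moved in the direction of the gland mucous markers, unlike the rest of the pit cell list, whose counts and means include it. The mean level of the pit cell list ran from 7.62 to 8.27 on the DTR Lgr5Hi arrays and from 10.79 to 10.93 on the Lgr5Neg arrays. Of the parietal and chief cell markers 3 of 7 were higher in DTR Lgr5Hi than in Lgr5Neg cells, with list means of 7.45 to 8.04 against 5.71 to 6.23, and in WT 1 was higher and 2 were lower. Markers moved with the smaller steps too. Of 22180 genes, 348 were called higher from DTR Lgr5Neg to Lgr5Lo cells, and 449 higher and 653 lower from Lgr5Lo to Lgr5Hi cells. From DTR Lgr5Neg to Lgr5Lo cells 5 of 7 parietal and chief cell markers were higher (median 2.43; list means of 7.89 to 8.30 in Lgr5Lo) and 6 of 7 gland mucous markers (median 1.69; 9.94 to 10.31). From Lgr5Lo to Lgr5Hi cells 4 of 7 gland mucous markers (median 0.70) and 13 of 17 tuft cell markers (median 1.72) were higher, and 5 of 7 pit cell markers were lower (median -3.13; 10.11 to 10.44 in Lgr5Lo). Of the parietal and chief cell markers 2 were higher and 2 lower from Lgr5Lo to Lgr5Hi cells (median 0.09), and this list joins 2 cell types. In it Cblif and Pga5 averaged 12.30 and 9.88 in Lgr5Hi, 9.97 and 8.32 in Lgr5Lo and 6.59 and 5.89 in Lgr5Neg cells. The parietal cell genes Atp4a and Atp4b averaged 5.97 and 5.27, 8.56 and 8.82, and 5.14 and 4.84 in the same order. The enteroendocrine list had 2 of 12 higher and 1 lower between DTR Lgr5Hi and Lgr5Neg cells, with means of 6.92 to 7.89 against 7.40 to 7.48. The part of these cell mixtures in the results for the 10 genes was not tested.

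Chad, chondroadherin, is a leucine-rich repeat protein of cartilage matrix that binds collagen and an integrin. It was measured at 11.47, 11.28 and 11.24 on the DTR Lgr5Hi arrays, at 10.34, 10.12 and 9.93 on the Lgr5Lo arrays and at 7.76, 7.95 and 7.83 on the Lgr5Neg arrays. No 2 of the 3 gates overlapped. Lgr5Hi cells exceeded Lgr5Neg cells by 3.48 ± 0.14 (SE), an 11.2-fold difference (limma adjusted p = 7.99e-08), and Lgr5Lo cells by 1.20 ± 0.14 (limma adjusted p = 0.00103). Lgr5Lo cells in turn exceeded Lgr5Neg cells by 2.28 ± 0.14 (limma adjusted p = 2.02e-05).

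WT Aqp5Pos arrays held Chad at 10.78, 10.73, 10.87 and 10.90, and Aqp5Neg arrays at 9.35, 9.25, 9.19 and 8.75. The difference of 1.68 ± 0.18 was called (limma adjusted p = 0.000764). In the IRES line Chad stood at 11.03, 10.99, 10.02 and 11.08 on the pyloric Lgr5Hi arrays and at 8.52, 9.48, 8.37 and 9.50 on the Lgr5Lo arrays, with array 3 the lowest of both gates. The whole pylorus arrays read 8.30 and 8.48. Sorted intestinal cells and crypts read 3.41 to 5.33, and the whole colon arrays read 7.26 and 4.59, the higher on the array with stomach genes.

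The relatives of Chad were mostly flat. Of 15 other small leucine-rich proteoglycans measured, 1 was called in DTR Lgr5Hi against Lgr5Neg cells (median 0.02). It was Prelp, a collagen-binding proteoglycan, higher by 2.55 ± 0.18 (limma adjusted p = 1.79e-06). Prelp was also called between Lgr5Hi and Lgr5Lo cells (0.90 ± 0.18, limma adjusted p = 0.0148), between Lgr5Lo and Lgr5Neg cells (1.65 ± 0.18, limma adjusted p = 0.000557) and in WT Aqp5Pos cells (1.22 ± 0.26, limma adjusted p = 0.0307). Its IRES group means were 7.48 in pyloric Lgr5Hi, 9.27 in small intestinal Lgr5Hi and 8.44 in colonic Lgr5Hi cells, so unlike Chad it was high in bright cells of all 3 organs. Of 4 integrin chains that bind collagen or chondroadherin, limma called 0 in the DTR comparison and 0 in WT, and 1 and 1 passed an unadjusted p of 0.05.

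Fibroblasts are an established source of such matrix proteins. Of 10 fibroblast and smooth muscle markers limma called 0 in either comparison (0 and 2 at an unadjusted p under 0.05). The list mean ran from 3.73 to 4.10 on DTR Lgr5Hi arrays and from 3.83 to 3.94 on Lgr5Neg arrays, around the array medians. In WT it ran from 4.02 to 4.28 on Aqp5Pos and from 3.94 to 3.99 on Aqp5Neg arrays, without overlap. The part of fibroblasts and smooth muscle in the Chad result was not tested. On the whole IRES pylorus arrays the list mean was 4.34 and 5.11.

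**Figure D2:**
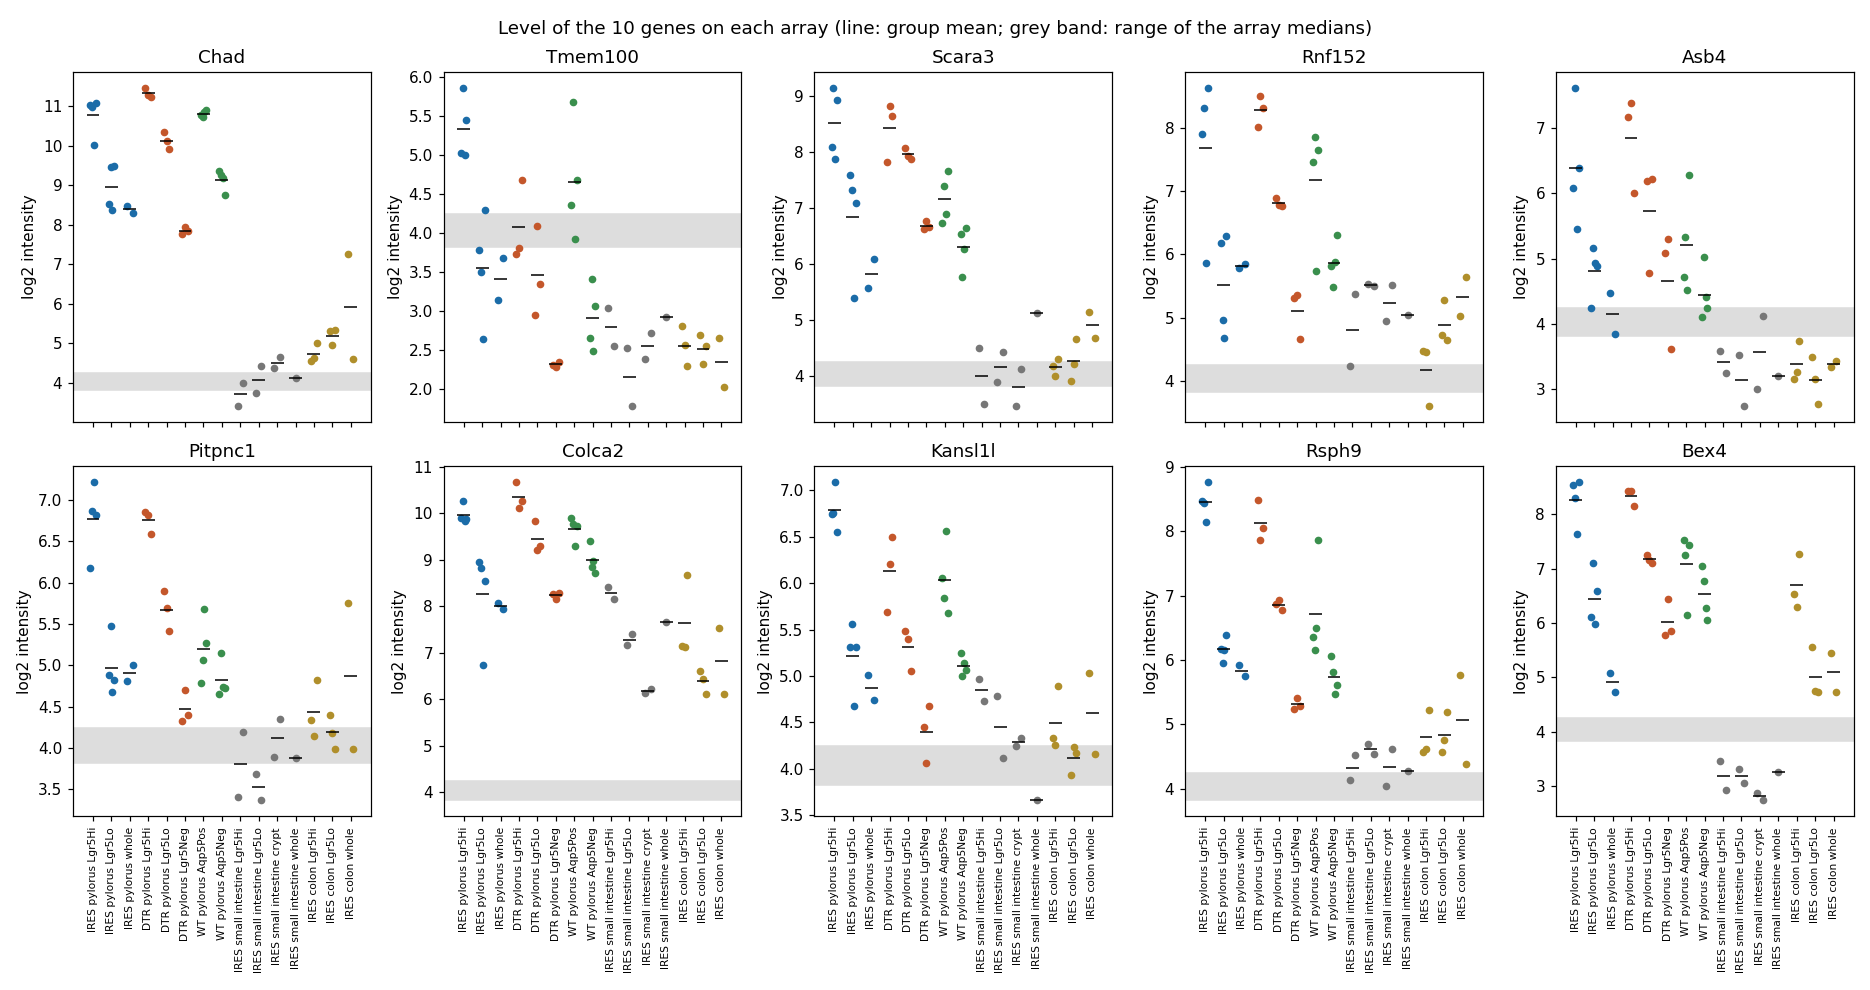
Log2 intensity of each gene on every array, by group; a line marks the group mean and the grey band the range of array medians (3.82 to 4.25). The pyloric groups stand to the left, where the group means of bright cells lay above those of dim and negative cells of their line. Single bright and dim arrays overlapped for Tmem100, Scara3 and Asb4 in DTR and for Rnf152 in IRES pylorus. The intestinal groups stand to the right, where the means of all 10 genes were below those of both bright pyloric gates. The whole colon array with stomach genes stands out there for Chad (7.26), Pitpnc1 (5.75) and Rsph9 (5.77).

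Tmem100 is a small membrane protein known from arterial endothelium, where it lies downstream of the BMP receptor ALK1, and from sensory neurons, where it links the channels TRPA1 and TRPV1. It was the dimmest of the 10, with many arrays below the array medians. DTR Lgr5Hi arrays read 3.72, 3.80 and 4.68, Lgr5Lo arrays 2.96, 4.09 and 3.35, and Lgr5Neg arrays 2.31, 2.29 and 2.35. Bright and negative cells differed by 1.75 ± 0.28 (limma adjusted p = 0.000672). Bright and dim arrays overlapped, and the difference of 0.61 ± 0.28 was not called (limma adjusted p = 0.282). Dim cells stood 1.15 ± 0.28 above negative cells, just short of a call (limma adjusted p = 0.0548), and was called with trend and robust eBayes (0.0411) and without Lgr5Lo array 1 (0.0436).

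In WT cells Tmem100 read 4.36, 5.67, 3.92 and 4.67 in Aqp5Pos and 2.66, 3.41, 2.49 and 3.07 in Aqp5Neg. This difference of 1.75 ± 0.33 was the largest of the 10 in WT (limma adjusted p = 0.0166), and it lost its call without Aqp5Neg array 1, 3 or 4 (limma adjusted p of 0.0603, 0.0658 and 0.059). The IRES pylorus read 5.02, 5.86, 5.00 and 5.45 in Lgr5Hi and 3.79, 3.50, 2.65 and 4.29 in Lgr5Lo, without overlap. No intestinal array exceeded 3.04. Tmem100 was also the gene whose level differed most between the bright gates of the 2 lines, 5.33 in IRES and 4.07 in DTR, a comparison in which line and sort cannot be told apart.

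Of 14 genes of ALK1 and BMP signalling, 2 were called higher in DTR Lgr5Hi than in Lgr5Neg cells and 1 lower (median 0.07). Of all genes 8.84% were called higher and 9.48% lower in this comparison. The higher ones of the list were Bmpr2, the type II receptor (0.84 ± 0.15, limma adjusted p = 0.00122), and Smad4, the shared signal carrier (0.43 ± 0.13, limma adjusted p = 0.0306). The lower one was Id1, a direct BMP target, at -1.50 ± 0.23 (limma adjusted p = 0.000495), and it was lower in WT Aqp5Pos cells as well (-0.86 ± 0.18, limma adjusted p = 0.0283). The receptor gene itself, Acvrl1, averaged 4.53 in DTR Lgr5Hi and 4.27 in Lgr5Neg cells and was not called. Trpa1 and Trpv1 stayed below the array medians in both groups, at 2.36 and 3.12 in DTR Lgr5Hi cells, and limma called 0 of the 2 in either comparison (0 at an unadjusted p under 0.05). Of 10 endothelial markers limma called 0 in DTR and 0 in WT (1 and 3 at an unadjusted p under 0.05). The list mean was 3.74 to 3.83 on DTR Lgr5Hi and 3.53 to 3.72 on Lgr5Neg arrays, and 3.76 to 3.95 on WT Aqp5Pos and 3.50 to 3.65 on Aqp5Neg arrays. The part of endothelial RNA in the Tmem100 result was not tested.

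Scara3 belongs to the class A scavenger receptors by sequence and is known in humans as a stress response gene. Its DTR values were 7.82, 8.82 and 8.64 in Lgr5Hi, 8.06, 7.93 and 7.86 in Lgr5Lo and 6.61, 6.76 and 6.65 in Lgr5Neg cells. Bright and dim gates overlapped while both lay well above the negative gate. Lgr5Hi exceeded Lgr5Neg cells by 1.75 ± 0.21 (limma adjusted p = 9.56e-05) and Lgr5Lo exceeded Lgr5Neg cells by 1.28 ± 0.21 (limma adjusted p = 0.00695). Between bright and dim cells the difference of 0.48 ± 0.21 was not called (limma adjusted p = 0.264), but it was 0.78 and called without Lgr5Hi array 1 (limma adjusted p = 0.0124).

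WT arrays read 6.73, 7.38, 6.88 and 7.66 in Aqp5Pos and 6.53, 5.77, 6.26 and 6.64 in Aqp5Neg cells. The groups did not overlap, and the difference of 0.86 ± 0.25 was not called (limma adjusted p = 0.0891); after quantile normalization it was 1.10 and called (limma adjusted p = 0.0292). In IRES pylorus Scara3 read 8.09, 9.14, 7.88 and 8.93 in Lgr5Hi and 7.59, 7.31, 5.38 and 7.09 in Lgr5Lo cells. Sorted intestinal cells read 3.48 to 4.65, and the whole tissue arrays 5.12 in small intestine and 5.14 and 4.68 in colon. The 4 other class A scavenger receptors measured gave 0 calls by limma in either comparison (0 at an unadjusted p under 0.05), with a median of 0.13 in DTR.

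Rnf152 is a ubiquitin ligase of the lysosomal membrane that restrains the growth kinase complex mTORC1 through its activators RagA and Rheb. Its probe set gave 8.02, 8.51 and 8.32 in DTR Lgr5Hi, 6.90, 6.78 and 6.77 in Lgr5Lo and 5.31, 5.36 and 4.65 in Lgr5Neg cells. The 3 gates stood apart in that order. The bright cells exceeded the negative ones by 3.18 ± 0.19, or 9.04-fold (limma adjusted p = 4.38e-07), and the dim ones by 1.47 ± 0.19 (limma adjusted p = 0.00147), while dim exceeded negative cells by 1.71 ± 0.19 (limma adjusted p = 0.000586). A second probe set of Rnf152, dimmer at a mean of 4.63 over all arrays, gave 0.70 ± 0.16 between bright and negative cells (limma adjusted p = 0.00709) and no call for the other comparisons, a choice added after the data were seen. The size of the Rnf152 difference thus depended on the probe set.

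WT Aqp5Pos arrays read 7.46, 7.86, 5.73 and 7.66 for Rnf152 and Aqp5Neg arrays 5.81, 5.48, 5.88 and 6.31. Array 3 of Aqp5Pos lay among the Aqp5Neg arrays. The difference of 1.31 ± 0.39 was not called (limma adjusted p = 0.0964), and without that array it was 1.79 ± 0.22 and called (limma adjusted p = 0.00271). IRES pylorus showed a similar spread, with 7.91, 8.32, 5.86 and 8.64 in Lgr5Hi and 6.18, 4.96, 4.68 and 6.29 in Lgr5Lo cells, so that Rnf152 was the 1 gene of the 10 whose Lgr5Hi arrays did not all lie above every other sorted IRES array. In the intestine its bright cells read lower than its dim cells, as described with the organs.

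Among 32 genes of amino acid sensing and mTORC1, 10 were called higher and 2 lower in DTR Lgr5Hi than in Lgr5Neg cells (median 0.10). They included Sesn3 of the sestrins, which restrain the pathway (0.95 ± 0.18, limma adjusted p = 0.00199). Folliculin, Flcn, and its partners Fnip1 and Fnip2, which act on the Rag GTPases, were higher by 0.71 ± 0.14, 0.76 ± 0.15 and 0.68 ± 0.13 (limma adjusted p of 0.00326, 0.00285 and 0.00243). Lamtor3, a part of the lysosomal anchor of the complex, was lower by -0.74 ± 0.15 (limma adjusted p = 0.00335). In WT limma called 0 of the 32 higher (1 at an unadjusted p under 0.05) and 1 lower, Lamtor3 again (-1.01 ± 0.23, limma adjusted p = 0.0413), with a median of -0.20. Limma called 0 of them between DTR Lgr5Hi and Lgr5Lo cells (6 higher and 1 lower at an unadjusted p under 0.05).

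Asb4 carries ankyrin repeats and a SOCS box, by which such proteins bring substrates to Cullin-5 ubiquitin ligases, and in the mouse it is an imprinted gene expressed from the maternal copy. DTR values were scattered, at 7.17, 7.38 and 6.01 in Lgr5Hi, 6.18, 4.78 and 6.21 in Lgr5Lo and 5.08, 5.30 and 3.61 in Lgr5Neg cells. Bright cells lay above negative cells, by 2.19 ± 0.48 (limma adjusted p = 0.00584), and dim cells overlapped with both. Neither the difference of 1.13 ± 0.48 between bright and dim cells nor that of 1.06 ± 0.48 between dim and negative cells was called (limma adjusted p of 0.238 and 0.362). Its standard error was the largest of the 10 in the DTR arrays.

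WT Aqp5Pos arrays read 4.72, 5.33, 4.52 and 6.29 for Asb4, and Aqp5Neg arrays 4.11, 5.03, 4.42 and 4.24. The groups overlapped, and the difference of 0.77 ± 0.34 was not called (limma adjusted p = 0.244). IRES pylorus read 6.08, 7.62, 5.45 and 6.40 in Lgr5Hi and 4.24, 5.16, 4.94 and 4.89 in Lgr5Lo cells. Intestinal arrays lay between 2.74 and 4.12, at or below the array medians.

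Of 21 other Asb genes and core parts of the Cullin-5 ligase, 1 was called higher, Asb17 (0.53 ± 0.13, limma adjusted p = 0.0113), and 1 lower, the adaptor Eloc (-0.93 ± 0.17, limma adjusted p = 0.00203), in DTR Lgr5Hi against Lgr5Neg cells (median -0.02). Asb17 averaged 2.68 and 2.15 in these groups, both below every array median. Asb3 was the 1 gene of this list called in WT, at -1.05 ± 0.18 (limma adjusted p = 0.0113). Of 17 neighbours of Asb4 on chromosome 6, around the imprinted pair Sgce and Peg10, 3 were called higher in DTR (median 0.04). Beside both lists, 8.84% of all genes were called higher and 9.48% lower between DTR Lgr5Hi and Lgr5Neg cells. Gng11, a G protein subunit, was higher by 1.31 ± 0.19 (limma adjusted p = 0.000376) and was the 1 neighbour called in WT (1.11 ± 0.22, limma adjusted p = 0.0201). Casd1, a sialic acid acetyltransferase, was higher by 1.02 ± 0.13 (limma adjusted p = 0.00013) and Ppp1r9a, an actin-binding partner of protein phosphatase, by 0.84 ± 0.17 (limma adjusted p = 0.00382). Sgce and Peg10 themselves averaged 5.19 and 4.72 in Lgr5Hi and 5.00 and 4.58 in Lgr5Neg cells and were not called.

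Pitpnc1 is a phosphatidylinositol transfer protein that also carries phosphatidic acid. It read 6.85, 6.82 and 6.58 in DTR Lgr5Hi, 5.89, 5.69 and 5.41 in Lgr5Lo and 4.33, 4.70 and 4.40 in Lgr5Neg cells. These gates formed 3 steps without overlap. The bright cells exceeded the negative cells by 2.27 ± 0.16 (limma adjusted p = 1.66e-06) and the dim cells by 1.09 ± 0.16 (limma adjusted p = 0.00259), and dim exceeded negative cells by 1.19 ± 0.16 (limma adjusted p = 0.00195).

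The antibody sort showed less. WT Aqp5Pos arrays read 4.79, 5.07, 5.68 and 5.27 for Pitpnc1 and Aqp5Neg arrays 4.65, 5.15, 4.74 and 4.72, which overlapped, and the difference of 0.38 ± 0.21 was not called (limma adjusted p = 0.339). In IRES pylorus it read 6.18, 6.86, 7.21 and 6.82 in Lgr5Hi and 4.88, 5.48, 4.67 and 4.82 in Lgr5Lo cells. Sorted intestinal arrays lay between 3.37 and 4.82, and the whole colon arrays read 5.75 and 3.98, the higher on the array with stomach genes. Of its 4 measured relatives limma called 0 higher and 1 lower in DTR Lgr5Hi against Lgr5Neg cells, Pitpna (-0.42 ± 0.12, limma adjusted p = 0.0276), and 0 in WT (2 lower at an unadjusted p under 0.05).

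Colca2, also known as Pou2af3, encodes a coactivator of POU2F3, the transcription factor that specifies tuft cells, the chemosensory cells of the gut. Its DTR values were 10.67, 10.10 and 10.27 in Lgr5Hi, 9.83, 9.21 and 9.28 in Lgr5Lo and 8.25, 8.16 and 8.28 in Lgr5Neg cells. The gates did not overlap. Bright cells exceeded negative cells by 2.12 ± 0.19 (limma adjusted p = 8.15e-06), dim cells exceeded negative cells by 1.21 ± 0.19 (limma adjusted p = 0.00435), and bright exceeded dim cells by 0.91 ± 0.19 (limma adjusted p = 0.0155). The last call was lost without Lgr5Hi array 1, Lgr5Lo array 2 or Lgr5Lo array 3 (limma adjusted p of 0.0521, 0.0779 and 0.0843).

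WT arrays read 9.89, 9.77, 9.29 and 9.73 for Colca2 in Aqp5Pos and 9.40, 8.85, 8.97 and 8.72 in Aqp5Neg cells. They overlapped at 1 array, and the difference of 0.68 ± 0.20 was not called (limma adjusted p = 0.0946). IRES pylorus read 9.89, 10.27, 9.83 and 9.87 in Lgr5Hi and 8.95, 8.82, 6.73 and 8.54 in Lgr5Lo cells. Unlike most of the 10, Colca2 was also well above the array medians in the intestine, with 8.16 and 8.42 in small intestinal Lgr5Hi cells and 6.13 and 6.21 in crypts.

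Tuft cell genes did not follow Colca2 across the sorts. In DTR Lgr5Hi cells 11 of 17 tuft markers were higher than in Lgr5Neg cells (median 1.12), Pou2f3 itself by 1.51 ± 0.22 (limma adjusted p = 0.000425), Trpm5, the taste transduction channel, by 1.77 ± 0.28 (limma adjusted p = 0.00063) and Dclk1, a kinase marking tuft cells, by 1.75 ± 0.36 (limma adjusted p = 0.00426). In WT Aqp5Pos cells 0 were called higher by limma (0 at an unadjusted p under 0.05) and 7 lower (median -0.89), with Pou2f3 at -1.01 ± 0.19 (limma adjusted p = 0.0153) and Dclk1 at -1.98 ± 0.21 (limma adjusted p = 0.000764). The mean over the tuft list ran from 6.10 to 7.17 on DTR Lgr5Hi, 4.85 to 5.55 on Lgr5Lo and 5.19 to 5.79 on Lgr5Neg arrays, and from 4.36 to 4.65 on WT Aqp5Pos and 5.27 to 5.61 on Aqp5Neg arrays. Between DTR Lgr5Lo and Lgr5Neg cells limma called 0 of the 17 (2 lower at an unadjusted p under 0.05; median -0.24), while Colca2 was called. In IRES pylorus Pou2f3 averaged 5.37 in Lgr5Hi and 5.94 in Lgr5Lo cells, but its arrays overlapped (4.38 to 6.69 and 4.23 to 6.87), as did the tuft list means (5.03 to 6.84 and 5.89 to 6.75), while Colca2 averaged 9.97 and 8.26 without overlap. In the small intestine Pou2f3 averaged 4.59 and 5.03, again with overlap, and Colca2 8.29 and 7.27. Whether the Pou2f3 difference itself differed between DTR and WT was not tested. Pou2af1, a coactivator of the same family known from B cells, was higher in DTR Lgr5Hi than in Lgr5Neg cells by 1.27 ± 0.22 (limma adjusted p = 0.0014) and averaged 5.39 in WT Aqp5Pos and 4.79 in Aqp5Neg cells, which was not called.

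**Figure D3:**
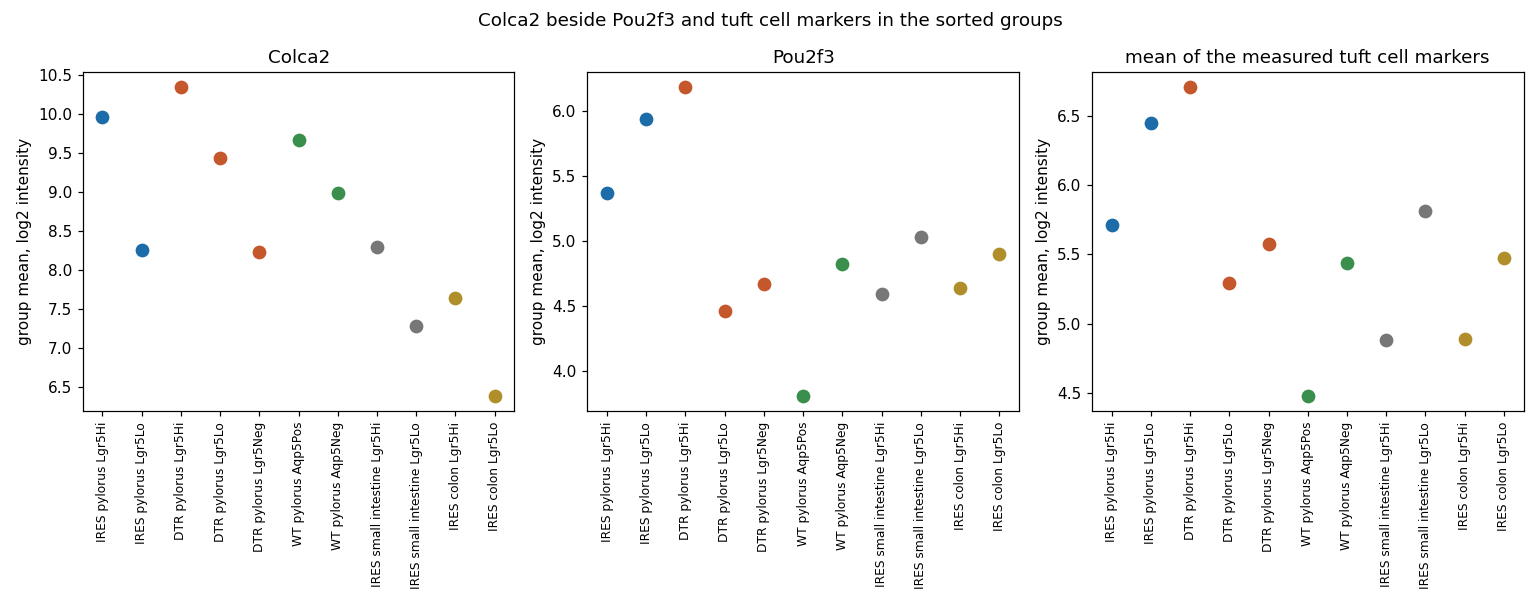
Group means (log2 intensity) of Colca2, of Pou2f3 and of the 17 measured tuft cell markers in the 11 sorted groups. Colca2 was higher in the bright or stained gate of every pair, whereas the means of Pou2f3 and the tuft markers were lower in that gate in WT pylorus and, with overlapping Pou2f3 arrays, in the 3 IRES organs, and higher in DTR Lgr5Hi cells.

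Kansl1l is a relative of Kansl1, the scaffold of the NSL complex that acetylates histone H4. It read 5.69, 6.21 and 6.50 in DTR Lgr5Hi, 5.48, 5.40 and 5.06 in Lgr5Lo and 4.45, 4.07 and 4.67 in Lgr5Neg cells. The arrays of the 3 gates did not overlap. Lgr5Hi exceeded Lgr5Neg cells by 1.74 ± 0.22 (limma adjusted p = 0.000112). The smaller steps were close to the threshold, at 0.82 ± 0.22 between bright and dim cells (limma adjusted p = 0.0467) and 0.92 ± 0.22 between dim and negative cells (limma adjusted p = 0.0464). Both lost their calls on centring each array on its median (limma adjusted p of 0.0595 and 0.0643), with the replicate number as a block (0.063 and 0.0653) and in the fit over all 42 arrays (0.164 and 0.245). The first was also lost without any 1 of Lgr5Hi arrays 2 and 3 and the 3 Lgr5Lo arrays (0.0625 to 0.2), and the second on leaving out any 1 array of either gate (0.0525 to 0.214).

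In WT mice Kansl1l read 6.06, 5.84, 6.56 and 5.68 in Aqp5Pos and 5.24, 5.00, 5.14 and 5.06 in Aqp5Neg cells. The difference of 0.93 ± 0.20 was called (limma adjusted p = 0.0327), and the call was lost without Aqp5Pos array 1 or 3 or any 1 Aqp5Neg array (limma adjusted p of 0.0527 to 0.11). IRES pylorus read 6.75, 6.76, 7.09 and 6.55 in Lgr5Hi and 5.32, 5.56, 4.68 and 5.32 in Lgr5Lo cells. Sorted intestinal arrays read 3.93 to 4.97. Of 10 parts of the NSL complex, 2 were called higher in DTR Lgr5Hi than in Lgr5Neg cells (median 0.04), Ogt, the enzyme that adds N-acetylglucosamine to proteins (1.11 ± 0.14, limma adjusted p = 0.000156), and Phf20, a methyl-lysine reader (0.62 ± 0.17, limma adjusted p = 0.024). Between these groups 8.84% of all genes were called higher. Kansl1 averaged 7.37 and 7.24 in these groups and was not called. In WT limma called 0 of the 10 (1 higher and 3 lower at an unadjusted p under 0.05).

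Rsph9 encodes a part of the radial spoke head, which lies inside motile cilia and sperm tails. It read 8.49, 7.87 and 8.05 in DTR Lgr5Hi, 6.88, 6.93 and 6.78 in Lgr5Lo and 5.25, 5.41 and 5.29 in Lgr5Neg cells. The 3 gates were separate. Bright cells exceeded negative cells by 2.82 ± 0.16, or 7.08-fold (limma adjusted p = 3.56e-07), and dim cells by 1.27 ± 0.16 (limma adjusted p = 0.00136), and dim exceeded negative cells by 1.55 ± 0.16 (limma adjusted p = 0.00038).

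WT Aqp5Pos arrays read 6.36, 6.15, 6.50 and 7.87 for Rsph9 and Aqp5Neg arrays 6.07, 5.82, 5.47 and 5.61. They did not overlap, array 4 of Aqp5Pos stood well above the rest, and the difference of 0.98 ± 0.32 was not called (limma adjusted p = 0.128), although it was called in a fit over all 42 arrays (limma adjusted p = 0.025). IRES pylorus read 8.48, 8.44, 8.14 and 8.77 in Lgr5Hi and 6.18, 5.95, 6.16 and 6.38 in Lgr5Lo cells, the largest distance between these gates among the 10. Sorted intestinal arrays read 4.13 to 5.22, and the whole colon arrays 5.77 and 4.38, the higher on the array with stomach genes.

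Neither the other radial spoke genes measured nor ciliated cell markers were called with Rsph9, and 5 of the 9 ciliated cell markers averaged below every array median in DTR Lgr5Hi cells. Of 6 other radial spoke genes limma called 0 in DTR Lgr5Hi against Lgr5Neg cells (1 lower at an unadjusted p under 0.05; median -0.19) and 0 in WT (0 at an unadjusted p under 0.05). Rsph1 averaged 4.83 in Lgr5Hi and 5.02 in Lgr5Neg cells, and Rsph4a 2.26 and 2.61. Of 9 markers of ciliated cells limma called 0 in either comparison (0 at an unadjusted p under 0.05), and their mean ran from 3.50 to 3.76 on DTR Lgr5Hi arrays. Foxj1, the master regulator of motile cilia, averaged 3.39 there, below every array median. The part of ciliated cells in the Rsph9 result was not tested.

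Bex4 belongs to the brain-expressed X-linked family of small proteins, and human BEX4 binds tubulin. It read 8.43, 8.43 and 8.14 in DTR Lgr5Hi, 7.24, 7.16 and 7.10 in Lgr5Lo and 5.78, 6.44 and 5.85 in Lgr5Neg cells. No array of 1 gate reached the next. Bright cells exceeded negative cells by 2.31 ± 0.17 (limma adjusted p = 2.45e-06), and the steps were 1.17 ± 0.17 from dim to bright (limma adjusted p = 0.00271) and 1.15 ± 0.17 from negative to dim (limma adjusted p = 0.00408). A second Bex4 probe set gave the same difference of 2.31 between bright and negative cells.

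WT Aqp5Pos arrays read 7.52, 7.25, 6.14 and 7.42 for Bex4 and Aqp5Neg arrays 7.04, 6.77, 6.27 and 6.05. They overlapped and the difference of 0.55 ± 0.31 was not called (limma adjusted p = 0.345), but by the second probe set it was 1.09 ± 0.25 and called (limma adjusted p = 0.039). IRES pylorus read 8.54, 8.30, 7.63 and 8.59 in Lgr5Hi and 6.11, 7.11, 5.97 and 6.58 in Lgr5Lo cells.

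Several X-linked relatives of Bex4 were higher in the same cells. Of 11 Bex and Tceal genes 4 were called higher in DTR Lgr5Hi than in Lgr5Neg cells (median 0.14). Bex2 was higher by 1.94 ± 0.16 (limma adjusted p = 4.47e-06), Tceal8, a relative of elongation factor TFIIS, by 0.93 ± 0.15 (limma adjusted p = 0.000816), Tceal1 by 0.70 ± 0.21 (limma adjusted p = 0.0328) and Tceal9 by 0.58 ± 0.16 (limma adjusted p = 0.0254). Bex1 averaged 6.29 in Lgr5Hi and 6.27 in Lgr5Neg cells. In WT limma called 0 of the 11 (2 higher at an unadjusted p under 0.05). Of 7 markers of neurons and glia, cells in which Bex genes are best known, 1 was called higher in DTR, S100b, and 0 in WT by limma (1 at an unadjusted p under 0.05), with list means of 4.03 to 4.43 on DTR Lgr5Hi and 4.08 to 4.27 on Lgr5Neg arrays. In WT the list mean ran from 4.14 to 4.44 on Aqp5Pos and from 3.965 to 4.09 on Aqp5Neg arrays, without overlap. The part of neurons and glia in the Bex4 result was not tested.

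**Figure D4:**
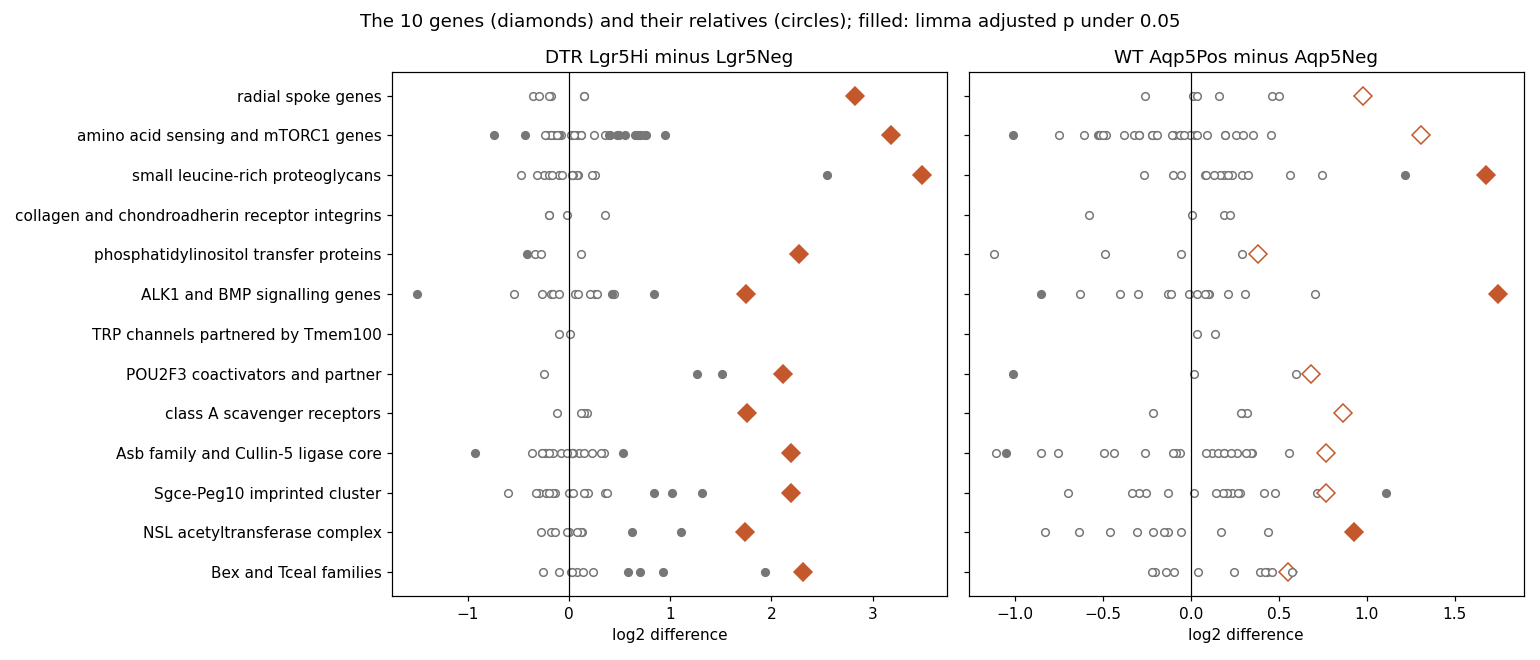
Log2 difference of the 10 genes (diamonds) and of the members of their families, complexes, pathways or neighbourhoods (circles), in DTR (left) and WT (right); filled symbols passed a limma adjusted p of 0.05. In DTR every diamond was filled and 30 of 143 circles were, 25 of them higher (17.5%, beside 8.84% of all genes) and 5 lower (3.5%, beside 9.48%), Prelp (2.55) and Bex2 (1.94) being the farthest to the right among the circles.

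Among the 15 groups the bright pyloric gates of both lines took the top places for 8 of the 10 genes, and WT Aqp5Pos came second for Chad and Tmem100. For 7 of the 8 the arrays of the 2 bright gates overlapped, and for Kansl1l the IRES arrays all lay above the DTR arrays. The 10 genes were pyloric in the IRES line by the rule that chose them. The smallest of the 5 differences between pyloric Lgr5Hi and another sorted IRES group ran from 1.57 (Bex4) to 2.29 (Rsph9), and by this value they ranked between places 4 and 23 of all genes, of which 71 had a smallest difference of 1 or more. The nearest group was pyloric Lgr5Lo for 8 genes, small intestinal Lgr5Hi for Colca2 (1.67) and colonic Lgr5Hi for Bex4 (1.57). For 9 of the 10 every pyloric Lgr5Hi array lay above every array of the 5 groups, as for 116 genes in all (0.523% of all genes), a separation that the choice of the genes favours.

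The choice of the genes used the levels of intestinal bright and dim cells, but not the difference between them. A gene as high in intestinal as in pyloric bright cells could not be chosen. The intestinal difference varied among the genes, whereas the bright minus dim difference in IRES pylorus was itself part of the choice. Only Colca2 had all bright arrays above all dim arrays in each organ and line, by group means of 1.71 in IRES pylorus, 1.02 in small intestine, 1.25 in colon and 0.91 in DTR pylorus. Bex4 did so in colon, with 6.30 to 7.27 in Lgr5Hi and 4.73 to 5.55 in Lgr5Lo cells, a difference of 1.69, and the second probe set gave colonic means of 5.76 and 3.87. Kansl1l also had its bright arrays above its dim arrays in colon, by 0.38 (4.49 and 4.11), and Tmem100 in small intestine, by 0.64 (2.80 and 2.16), below the array medians. In small intestine Bex4 was near the bottom of the scale in both gates, at 3.19 and 3.19. Rnf152 ran the other way, with bright below dim cells by -0.71 in both small intestine (4.81 and 5.51) and colon (4.17 and 4.88), without overlap. Its second probe set gave 4.10 and 4.43 in small intestine and the opposite order, 4.72 and 4.40, in colon. Rsph9 was lower in bright cells of the small intestine by -0.29 (4.33 and 4.62), close to the array medians, and its colonic gates overlapped (4.80 and 4.84). With 2 small intestinal arrays a gate these differences are given without a test.

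**Figure D5:**
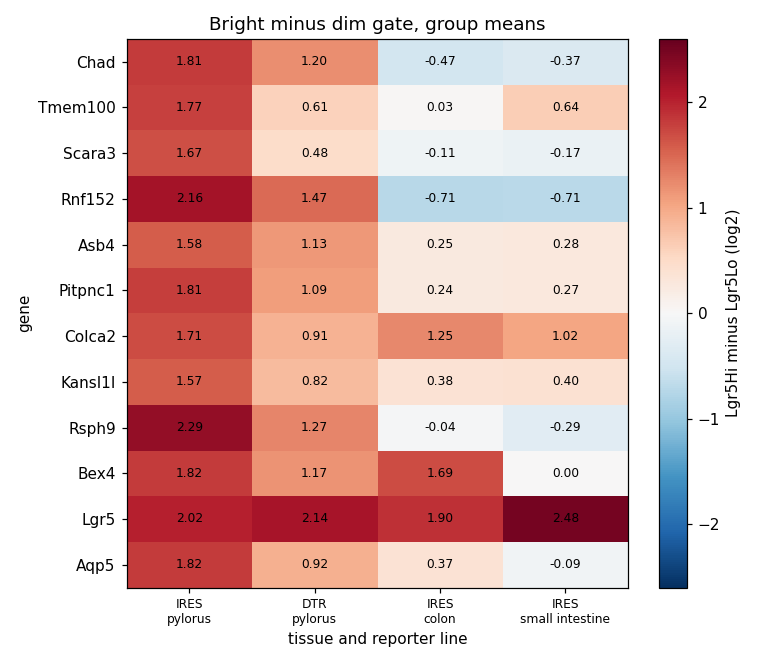
Difference of group means, Lgr5Hi minus Lgr5Lo (log2), for the 10 genes, Lgr5 and Aqp5 in 3 organs and 2 reporter lines; red is higher and blue lower in bright cells. Lgr5 was red in all 4 columns (1.90 to 2.48), and among the 10 genes Colca2 (0.91 to 1.71) was so too, while Rnf152 was blue in colon and small intestine (-0.71). The IRES pylorus column was part of the choice of the 10 genes.

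The bright gates of both lines and the Aqp5Pos gate were ordered differently by different genes. Chad read 10.78 in IRES Lgr5Hi, 11.33 in DTR Lgr5Hi and 10.82 in WT Aqp5Pos cells. Pitpnc1 read 6.77, 6.75 and 5.20, Rsph9 8.46, 8.14 and 6.72, and Asb4 6.39, 6.86 and 5.22 in the same order, lowest in the antibody sort, as was Aqp5 itself at 9.99, 10.44 and 8.82. Lgr5 read 8.53, 8.73 and 8.38. Mouse line and sorting method cannot be told apart here and no test was made.

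Over the 15 group means, 6 of which chose the genes, a pattern high in pylorus and low in intestine, like that of Aqp5, was favoured by the choice, and so was likeness among the 10. As a description, Pearson's r with Aqp5 ran from 0.80 (Tmem100) to 0.97 (Scara3) and with Lgr5 from 0.36 (Chad) to 0.70 (Colca2), and the 45 pairs among them gave 0.68 to 0.97 with a median of 0.87. These values describe 15 groups that share tissues, gates and arrays, and carry no p. They include the whole colon array with stomach genes, without which r ran from 0.81 to 0.97 with Aqp5 and from 0.38 to 0.70 with Lgr5, and the median over the 45 pairs was 0.87, a choice added after the data were seen. The genes of closest pattern to Chad were Rgs5, Fam43a and Rgs7 (r of 0.99, 0.98 and 0.98), to Scara3 Ift57, Tgfbr3 and Sdk2 (0.98, 0.97 and 0.97) and to Asb4 Enah, Sdk2 and Aqp5 (0.97, 0.97 and 0.97). For Bex4 they were Lamb2, Ift122 and Itih2 (0.97, 0.95 and 0.95), for Pitpnc1 Pdgfd, Rsph9 and Sgms1 (0.97, 0.97 and 0.96) and for Rsph9 Pitpnc1, Adamtsl3 and Asb4 (0.97, 0.97 and 0.96). Colca2 was nearest to Trim24, Bmp7 and Prom1 (0.95, 0.95 and 0.93), Rnf152 to Serpina3n, Adamtsl3 and Nalcn (0.95, 0.94 and 0.94), Kansl1l to Zmat1, C4b and Rsph9 (0.93, 0.93 and 0.92) and Tmem100 to C4b, Tent5b and Wdr72 (0.91, 0.91 and 0.91).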

How the data were processed

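RNA of sorted cells, crypts and whole glands was amplified, labelled with biotin and hybridised to Affymetrix arrays, per the labels' protocols. The authors deposited 1 table of log2 intensities for 41345 probe sets on 42 arrays, with values from 0.574 to 13.61. Per the submitters' processing notes these are RMA values, and oligo, Partek, limma 3.26.8 and R 3.2.3 are also named there, with no order or role; raw scans were not used here, so background correction and summarization cannot be varied. A dim probe set is compressed by such processing, which understates its differences, and the number of arrays limits the precision.

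The platform annotation gave 1 symbol to 23521 probe sets, several to 1814 and none to 16010. For each of the 22180 genes the probe set with the highest mean was used. In limma 3.58.1 (R 4.3.3) the 9 DTR and the 8 WT arrays were fitted separately with 1 mean per group and eBayes moderation; p-values were adjusted across the 22180 genes by Benjamini-Hochberg, and genes under 0.05 were called. The script was tested on simulated data. No difference between IRES groups was tested. The IRES arrays, the whole colon array with stomach genes among them, entered the spread of 1 alternative, a fit over all 42 arrays.

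The 10 genes, the lists of relatives and of cell type markers, the comparisons and the settings were chosen with earlier results of these data known. Named beside the 10 were Lgr5 and Aqp5, the 3 genes of highest correlation with each, up to 4 genes of each list with the smallest p in DTR Lgr5Hi against Lgr5Neg or WT Aqp5Pos against Aqp5Neg cells, called ones first, and any gene of a list of 8 or fewer; a few defining genes were added after their values were seen (Acvrl1, Sgce, Peg10, Kansl1, Bex1, Foxj1). Alternatives were a fit over all 42 arrays, trend and robust eBayes, median centring, quantile normalization, the mean of a gene's probe sets, a filter on low values, the replicate number as a block, leaving out each replicate, and, added after seeing the data, the other probe set of Rnf152 and Bex4 and group means without the first whole colon array. Whether arrays of equal replicate number came from the same mice is not given in the sources used here. The correlation of their deviations from the group means ran from -0.11 to 0.15 in DTR and from -0.02 to 0.17 in WT. With so few arrays these values cannot decide it, and the main fits treated the arrays as unpaired.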

Additional observations from a re-analysis of the deposited data

Results flagged for a closer look

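2 arrays of IRES pyloric Lgr5Hi cells stood apart from the other 3 of their group by Dixon's criterion. Chad was 10.02 on array 3, against 10.99 to 11.08 on the others, and Colca2 was 10.27 on array 2, against 9.83 to 9.89. The criterion was applied to 40 groups of 4 arrays, and chance alone marks about 1 in 20.

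Rsph9 and Rnf152 ran in opposite directions in pylorus and in at least 1 intestinal organ. Every bright array of Rsph9 lay above every dim array in both pyloric lines, and in small intestine every bright array lay below, with a difference of means of -0.29 over 2 arrays a gate near the array medians; in colon the gates overlapped (4.80 and 4.84). Rnf152 was higher on every bright array in DTR pylorus and lower on every bright array in small intestine (-0.71) and colon (-0.71); the second probe set of Rnf152 did not show the latter, with means of 4.72 in bright and 4.40 in dim cells. These differences between organs were not tested, and the difference in IRES pylorus was part of the choice of the genes.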

How the results depend on the processing

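In the fit over all 42 arrays the genes called higher numbered 679 for DTR Lgr5Hi against Lgr5Neg (1960 in the fit by line), 30 for Lgr5Hi against Lgr5Lo (449), 22 for Lgr5Lo against Lgr5Neg (348) and 261 for WT (121), and of the 10 genes 1 was called for Lgr5Hi against Lgr5Lo and 2 for Lgr5Lo against Lgr5Neg; the cause was not tested. The replicate number as a block moved the WT count to 80 and left 10, 6, 7 and 3 of the 10 genes called in the DTR comparisons of Lgr5Hi with Lgr5Neg, Lgr5Hi with Lgr5Lo and Lgr5Lo with Lgr5Neg and in WT. Without 1 replicate the counts over all genes ran from 1461 to 1983, 113 to 359, 138 to 254 and 38 to 165 in that order, and over the 10 genes from 10 to 10, 5 to 7, 7 to 8 and 1 to 3. Of 544 recomputed differences of single genes 496 kept their side of the threshold, 41 lost a call, 7 gained one and 0 reversed. The filter on low values left Tmem100 untested. With 3 or 4 arrays a group, and with Tmem100 near or below the array medians, small differences of dim genes may go uncalled.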

Other observations

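Unsorted tissue entered no comparison. In whole IRES pylorus the 10 genes were lower than in sorted pyloric Lgr5Hi cells by group means of 1.86 (Pitpnc1) to 3.35 (Bex4). Whole pylorus lay close to the dim sort for Chad (8.48 and 8.30) and Rsph9 (5.92 and 5.75), whereas Bex4 was lower in whole pylorus (5.09 and 4.74) than on any Lgr5Lo array, the lowest of which read 5.97. In the small intestine Scara3 was higher on the whole tissue array (5.12) than on any sorted or crypt array of that organ (3.45 to 4.48), and Colca2 stood at 7.66 in whole tissue and at 6.13 and 6.21 in crypts.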
